A study of Homo sapiens with 18 samples.

Results

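The 36 genes described here act in glycolysis and in the response of cells to low oxygen. They were taken by symbol from a fixed list, joined across tables by Entrez identifier, and all 36 were among the 19401 genes listed in at least 1 of 3 deposited tables. They comprised 17 glycolytic enzymes, 4 regulators of glycolysis or pyruvate use, and 15 genes of the hypoxia response. RNA was measured by sequencing in MCF10A, an immortalized, non-tumorigenic human mammary epithelial cell line, in 18 libraries of 5 groups, with no agent added. For CBFB, 3 knockout (CBFB_KO) libraries accompanied 3 wild-type (WT) libraries. The RUNX1 experiment had 4 libraries of RUNX1 knockout KO1, 4 of RUNX1 knockout KO2 and 4 of WT. All knockouts were made with CRISPR-Cas9 and grown from single cells, so a clone's own traits are part of its group. All groups were cultured in serum-containing medium with insulin, EGF, hydrocortisone and cholera toxin, and the oxygen tension was not given in the sources used here.

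The study compared each knockout with WT. Each deposited table gives, per gene, a mean normalized read count over the knockout and WT libraries together, beside the authors' own comparison. Only the mean was used here, so the values below describe how abundant each gene was across a knockout and its WT pooled, and neither a knockout-against-WT change nor replicate error was computed. By the labels, 6 libraries stand behind a mean of the CBFB table and 8 behind a mean of the KO1 or KO2 table. The loss of CBFB or RUNX1 RNA could not be checked for the same reason. No difference between means given below could be compared with the spread between libraries, and every value is a description with no test.

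Glycolysis splits glucose into pyruvate in the cytoplasm, and lactate dehydrogenase interconverts pyruvate and lactate. When oxygen falls, prolyl hydroxylases of the EGLN family no longer mark the HIF alpha proteins for destruction, and HIF binds DNA at a short core sequence near genes for glucose use, pH control, vessel growth and mitochondrial turnover. Several enzyme steps can be served by more than 1 gene, and the isoenzymes differ in tissue distribution and regulation. HIF1A protein is controlled mainly by its breakdown, so the RNA of HIF1A itself says little about HIF activity.

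The HIF core was searched in the members' promoters as ACGTG or GCGTG on either strand, in windows from 250 bases before to 50 after each annotated start (RefSeq, GRCh38.p14). The letters CACGTG hold ACGTG on both strands and were counted once per promoter. Promoters were in the table for 33 members, which had 57 of them, and 11 members had more than 1. The others were VEGFA, NDRG1 and BNIP3L. Of the 57 promoters 68.4% held a core, against 48.4% of all 35116 promoters and 56.8% of the 20362 promoters of genes listed in the tables. For ACGTG alone the shares were 42.1%, 21.4% and 23.9%. The members' promoters were also richer in G and C, with a median of 68.7% against 63.3% for listed genes, and the part of base composition in these shares was not tested. At least 1 core was found for 30 of the 33 members, and EGLN3, P4HA2 and PGAM1 had none in these windows. The share of all genes with a core in any promoter was not computed, so this count has no background. Members with more than 1 promoter also had more windows in which a match could fall. A match is a description of letters and not a measured site. The windows below come from abundant members (GAPDH, LDHA and DDIT4), from the member at the lowest level (CA9) and from ANKRD37, and were selected after their values were seen. Each is 25 bases long, 5′ to 3′, with the core in capitals.
GAPDH, + strand, chr12:6535174-6535198, core 80 bases before the start: ctgcggggtcACGTGtcgcagagga
LDHA, + strand, chr11:18394467-18394491, core 86 bases before the start: cccgactcacACGTGggttcccgca
DDIT4, + strand, chr10:72273789-72273813, core 125 bases before the start: aacgttgcttACGTGcgcccggagt
CA9, - strand (opposite to the gene), chr9:35673900-35673924, core 18 bases before the start: tacgggctgtACGTGcattggaaac
ANKRD37, + strand, chr4:185396688-185396712, core 143 bases before the start: gtgtttgtgtACGTGcggccgtggc

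Of the genes with windows above, GAPDH ranked first of 36 per kilobase in the KO1 table and CA9 last, and both held ACGTG. ENO1, which ranked next after GAPDH, held GCGTG but no ACGTG. These genes were picked after their values were seen, and a relation between core and level was not tested.

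Library totals were not used, since the tables hold none. The summed means per table were 20214423, 18050386 and 16467400 for CBFB, KO1 and KO2. The basal epithelial keratin KRT5 was at 87894, 101688 and 95221 mean normalized counts in these tables. Others of its list varied more, with KRT17 at 10526.5, 47911.7 and 68408.4. KRT14 was at 4112 and 9515 in the CBFB and KO1 tables and was not listed in the KO2 table, which by the labels shares its WT with KO1. The reason a gene is missing from a table is unknown, so a gene not listed is not shown to be unexpressed. The endothelial markers PECAM1, CDH5 and VWF were all below 1. The leukocyte marker PTPRC was at 0.463 in the CBFB table and was listed in neither RUNX1 table, and CD3E was below 1 in every table, but CD14, of the same list, was at 142, 128 and 141. The fibroblast-associated genes COL1A1 and PDGFRA were at 236 to 305 and 466 to 633, while COL1A2 was at 0.145 in the CBFB table and was not listed in the others.

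Most of the glycolytic enzymes were abundant RNAs in these cells. With each table taken singly, means above the 90th percentile of listed genes were found for 13 of 17. They were not the same 13 throughout. PFKM stood at percentile 91.0, 89.8 and 89.5 in the CBFB, KO1 and KO2 tables, and PFKL at 88.4, 91.3 and 91.9. HK2, ALDOC and ENO2 stayed below the 90th percentile in each. The 36 members together held 1.94%, 2.06% and 2.27% of the summed means in the CBFB, KO1 and KO2 tables, and 1.82%, 1.96% and 2.17% came from the 17 enzymes. Of all members, 15 lay above the 90th percentile with each table taken singly, again with PFKM and PFKL changing places. In each, 33 of 36 had a mean of at least 100. These percentiles and shares of the summed means use means not divided by length. Genes are ranked against each other after division by the length of the longest annotated transcript in kilobases. Per kilobase, the first 8 of the 36 in the KO1 table were all glycolytic enzymes, in the order GAPDH, ENO1, PKM, LDHA, LDHB, ALDOA, TPI1 and PGAM1. GAPDH, which oxidizes glyceraldehyde-3-phosphate, stood at 49012, 49931 and 53620 mean normalized counts per kilobase in the CBFB, KO1 and KO2 tables. ENO1, the main enolase, followed at 24244, 22690 and 22690. PKM, which makes pyruvate, and LDHA, which reduces it to lactate, lay side by side at 17190 and 17024 per kilobase in the KO1 table. This difference is small and its error is unknown. Annotated pseudogenes bear the names of 16 members, with 65 for GAPDH, 46 for BNIP3 and 13 for PGAM1, so their counts are uncertain where reads could be shared with a copy.

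**Figure D1:**
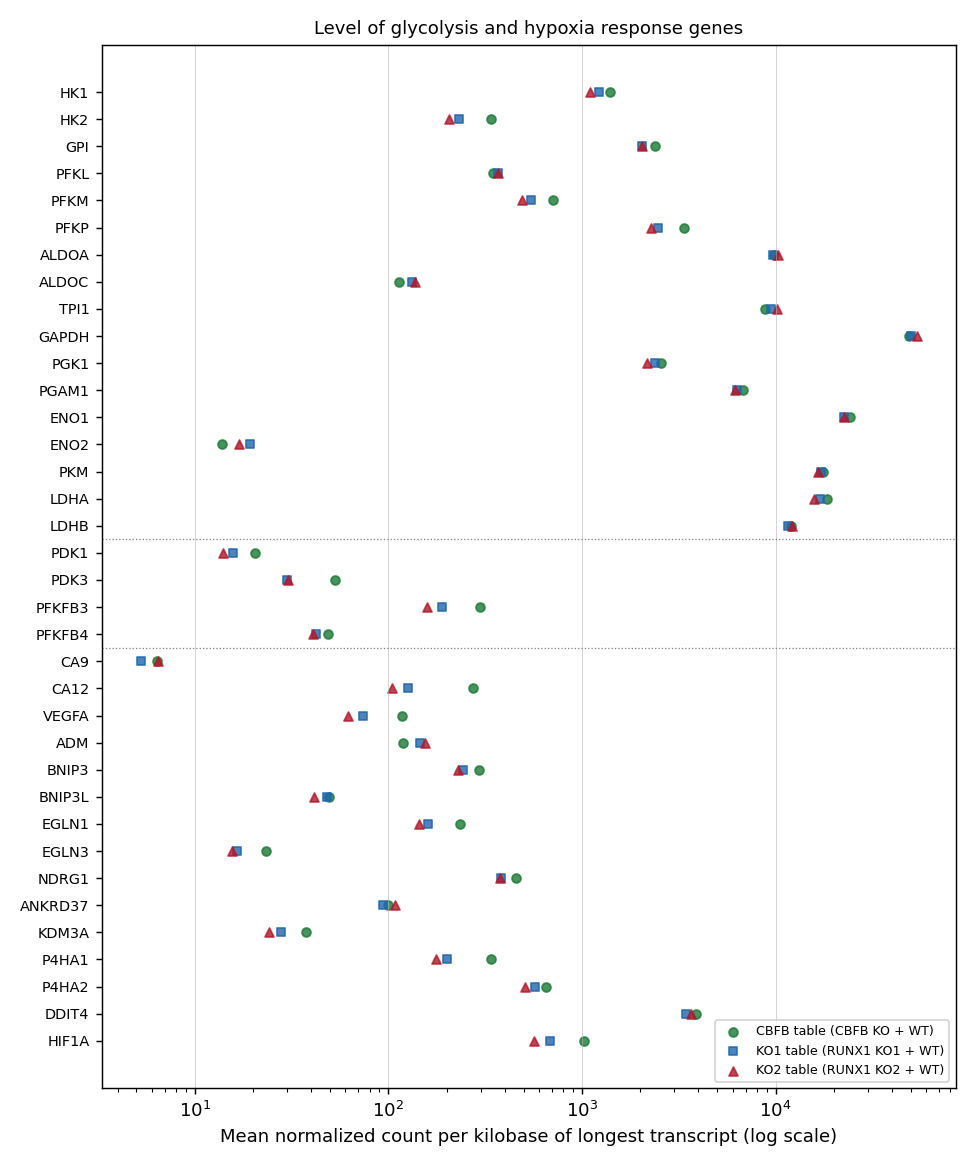
Mean normalized count per kilobase of longest transcript (log axis) for each of the 36 genes, with 1 point per deposited table; each point is a mean over knockout and WT libraries, so it has no error bar. Dotted lines separate enzymes, regulators and hypoxia response genes, and the enzymes reach 49931 for GAPDH in the KO1 table while CA9 lies lowest at 5.27.

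At several glycolytic steps a single isoenzyme carried nearly all of the RNA. ALDOA, the aldolase of muscle and most proliferating cells, made up 98.6% of aldolase RNA per kilobase in the KO1 table and ALDOC, the brain form, made up 1.35%. ENO1 held 99.9% of enolase RNA, with the neuronal form ENO2 at a mean of 38.9, 54.8 and 48.1 in the CBFB, KO1 and KO2 tables. PKM held 99.97% of pyruvate kinase RNA beside the liver and red cell gene PKLR. HK3, the testis gene PGK2 and the testis gene LDHC were not listed in any table. GPI and TPI1, which have no isoenzyme here, had means of 8859 and 16796 in the KO1 table, and PGK1, the first step that returns ATP, had 11643.

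Other steps were divided between genes. Hexokinase, which traps glucose in the cell, was mostly HK1 (80.6%, 84.0% and 84.2% in the CBFB, KO1 and KO2 tables), with the rest almost all HK2. The inducible HK2 had means of 1952, 1338 and 1194. Its share rested on the transcript length used: with the median annotated length it was 3.64% in the KO1 table in place of 15.9%. Phosphofructokinase, the committed step, was led by the platelet form PFKP at 76.1%, 72.9% and 72.7%. The muscle form PFKM held 16.2% and the liver form PFKL 10.9% in the KO1 table, or 6.08% for PFKL with the median length. Lactate dehydrogenase was the most evenly divided of the glycolytic steps: LDHA held 60.4%, 59.4% and 56.5% and LDHB, the heart form, held the remainder. PGAM1 held 82.3% of phosphoglycerate mutase RNA in the KO1 table against 17.6% for PGAM4, a retrotransposed copy of PGAM1 whose reads may not be separable from it. Phosphofructokinase and lactate dehydrogenase RNA was thus a mixture of isoenzymes, unlike aldolase, enolase and pyruvate kinase RNA.

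**Figure D2:**
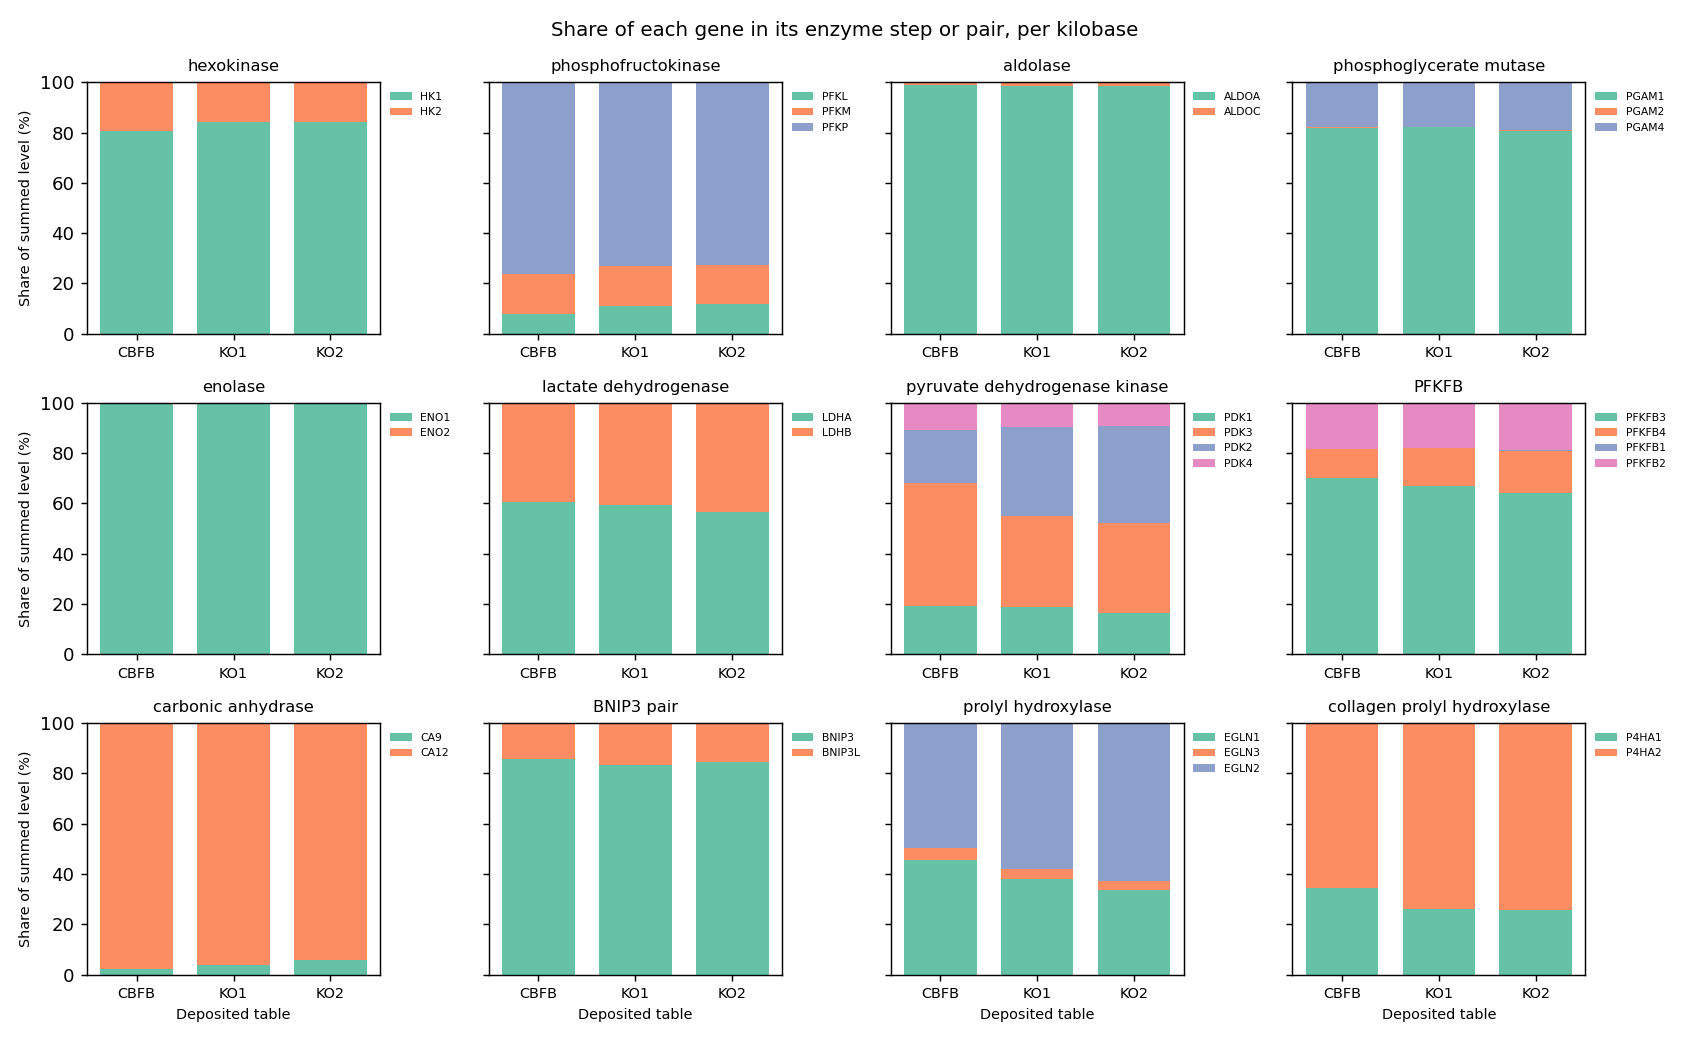
Stacked bars show the share (%) of each gene in the summed level per kilobase of its enzyme step or gene pair, for the CBFB, KO1 and KO2 tables. ALDOA and ENO1 fill their panels, whereas LDHA and LDHB divide theirs and PDK3 holds 49.0% in the CBFB table against 35.9% in the KO1 table.

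The 4 regulators lay below 15 of the 17 enzymes per kilobase in the KO1 table, the exceptions being ALDOC and ENO2. Pyruvate dehydrogenase kinases turn off pyruvate dehydrogenase, and 4 genes encode them. PDK1, the HIF-responsive form, had means of 292, 223 and 199 in the CBFB, KO1 and KO2 tables, and PDK3 had 250, 141 and 143. Per kilobase, PDK3 held 49.0% of the kinase RNA in the CBFB table, while in the KO1 table PDK3 and PDK2 were level at 35.9% and 35.5%. In the KO2 table PDK2 led with 38.6% against 35.6% for PDK3. PDK1 held 18.9% in the KO1 table. The order of the kinases thus differed between tables and also depended on the transcript length used. With the median annotated length PDK1 led in the KO1 table with 51.8%. PFKFB enzymes set fructose-2,6-bisphosphate, the activator of phosphofructokinase. PFKFB3, the form with the strongest kinase bias, had means of 1347, 862 and 719 and held 70.1%, 67.0% and 64.2% of the family's RNA per kilobase, and PFKFB4 had means of 175, 151 and 146. With the median length PFKFB2 led in the KO1 table with 52.2%.

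The genes of the hypoxia response spanned a wide range, from DDIT4 to CA9. DDIT4, an inhibitor of mTORC1 signalling, was the most abundant per kilobase, at means of 6809, 6052 and 6403 in the CBFB, KO1 and KO2 tables. HIF1A, the oxygen-regulated subunit, followed at 4045, 2714 and 2232. CA9, the surface carbonic anhydrase widely used as a marker of hypoxic cells, had means of only 10.4, 8.52 and 10.4, at percentile 26.3, 25.5 and 27.2 of the listed genes by mean. Its relative CA12 was at 1761, 809 and 669 and made up 97.7%, 96.0% and 94.2% of the pair's RNA per kilobase. Of the secreted factors, the vessel growth factor VEGFA had means of 1433, 900 and 756, and the vasodilator peptide ADM had 226, 274 and 292.

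The mitophagy receptors and the collagen enzymes each had a leading member, whereas the leading oxygen sensor depended on whether means were divided by length. BNIP3 held 83.4% of the RNA of the mitophagy pair in the KO1 table, at a mean of 747, and BNIP3L had a mean of 175. With the median transcript length BNIP3L held 33.4% of the pair in place of 16.6%. Among the oxygen-sensing prolyl hydroxylases EGLN1 had means of 1668, 1139 and 1026 and EGLN3 only 66.9, 47.0 and 44.3. EGLN2, the third gene of this family and not a member, led per kilobase with 49.8%, 58.2% and 62.6%. With the median transcript length it led in the KO1 table with 78.5%. When means were not divided by length, EGLN1 led in the CBFB and KO1 tables with 61.0% and 53.1%. In the KO2 table EGLN2 then held 49.4% and EGLN1 48.5%. P4HA2 held 74.0% of the collagen prolyl hydroxylase pair in the KO1 table and P4HA1 held 26.0%, against 34.3% for P4HA1 in the CBFB table. With the median transcript length P4HA1 held 8.15% and 11.6% in these tables. The remaining members were NDRG1, a stress-induced growth regulator, with means of 1814, 1527 and 1507; KDM3A, a histone demethylase, with 330, 243 and 212; and the ankyrin repeat gene ANKRD37 with 143, 135 and 157. Genes of this group thus stood at both high and low levels.

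Other genes of the pathway, from lists of their own, ranged as widely. In glucose and lactate transport, 5 of 6 genes had a mean of at least 100 in every table. BSG, the chaperone of lactate transporters, was highest per kilobase, with means of 10972, 12471 and 12884 in the CBFB, KO1 and KO2 tables, and SLC2A3, a high-affinity glucose transporter, was lowest with 2.82, 4.61 and 4.31. SLC2A1, its widely expressed relative and named after its values were seen, had means of 1814, 1730 and 1618. Of 7 genes of oxygen sensing, EPAS1, which encodes another HIF alpha subunit, was highest per kilobase with means of 3526, 2618 and 2284, and HIF3A was lowest with 0.449, 0.506 and 0.356. Of 15 further hypoxia targets, 10 reached a mean of 100 in the KO1 table. PPP1R3C, a glycogen-targeting subunit, was lowest per kilobase there with a mean of 1.52. All 9 genes of the pyruvate dehydrogenase and pentose phosphate list had means of at least 100 in every table. Per kilobase in the KO1 table the lowest of them was PDP2, a phosphatase, with a mean of 460, and the highest was PGD, a pentose phosphate dehydrogenase, with a mean of 4165.

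The RUNX1 clones could be set side by side, since by the labels both belong to the experiment with 1 set of 4 WT libraries. Where both means contain the same WT libraries, a ratio of means understates a difference between the clones. The ratio of the KO2 mean to the KO1 mean was taken after centring on the median of 10174 genes with means of at least 100, which lay at −0.10 on the log2 scale. The pooled means of the members differed little between these tables. Shared WT libraries draw such ratios together, so these values do not show that the clones were alike. Where the WT is shared, a limit of 25% on pooled means stands for a larger difference between the clones. The members' median centred log2 ratio was 0.01, against 0 by construction for all genes, and 20 of 36 lay above 0. Of the 33 members with both means at least 100, 1 had, after centring, a KO2 mean at least 25% above its KO1 mean, where 5.36% of all genes did, and 0 had a KO1 mean at least 25% above the KO2 mean, where 0.423% did. The member past this limit was ANKRD37 (means of 135 and 157, centred log2 ratio 0.32), and with means as deposited its ratio was 0.22 and no member passed the limit. CA9 had a ratio of 0.40 but means of only 8.52 and 10.4. The next highest were GAPDH at 0.21 and ALDOA and TPI1 at 0.20 each. The lowest were HIF1A at −0.18, CA12 at −0.17, PFKFB3 at −0.16, VEGFA at −0.15 and BNIP3L at −0.13, all within the limit. By group, 11 of 17 enzymes and 7 of 15 hypoxia response genes lay above 0, or 5 and 4 with means as deposited.

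The CBFB and KO1 tables came from separate experiments with separate WT libraries, so genotype and experiment cannot be told apart in their ratio. After centring on the median of 10531 genes, at 0.23 on the log2 scale, the members' median log2 ratio was −0.02 and 16 of 36 lay above 0. The spread was wider than between the RUNX1 tables. By the labels those share WT libraries, which narrows their ratios, so the spreads and the counts past the limit cannot be compared. Of the 33 members with means of at least 100, 6 were higher by at least 25% (18.2%, against 20.0% of all genes) and 3 were lower (9.09%, against 16.5%). With so few members these shares say nothing particular about them. Highest was CA12, with means of 1761 and 809 and a ratio of 0.89. PDK3 followed at 0.60, P4HA1 at 0.53, VEGFA at 0.44, PFKFB3 at 0.41 and HIF1A at 0.35. The 3 lower members were ADM at −0.51, ALDOC at −0.45 and TPI1 at −0.34, and PFKL at −0.32 lay just inside the limit. ENO2 had the lowest ratio of all members, −0.73, from means of 38.9 and 54.8. Only 3 of 17 enzymes lay above 0, with a median of −0.13, whereas 10 of 15 hypoxia response genes did, with a median of 0.05. These counts turned on the scaling: with means as deposited 12 of 17 enzymes and 14 of 15 hypoxia response genes lay above 0.

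**Figure D3:**
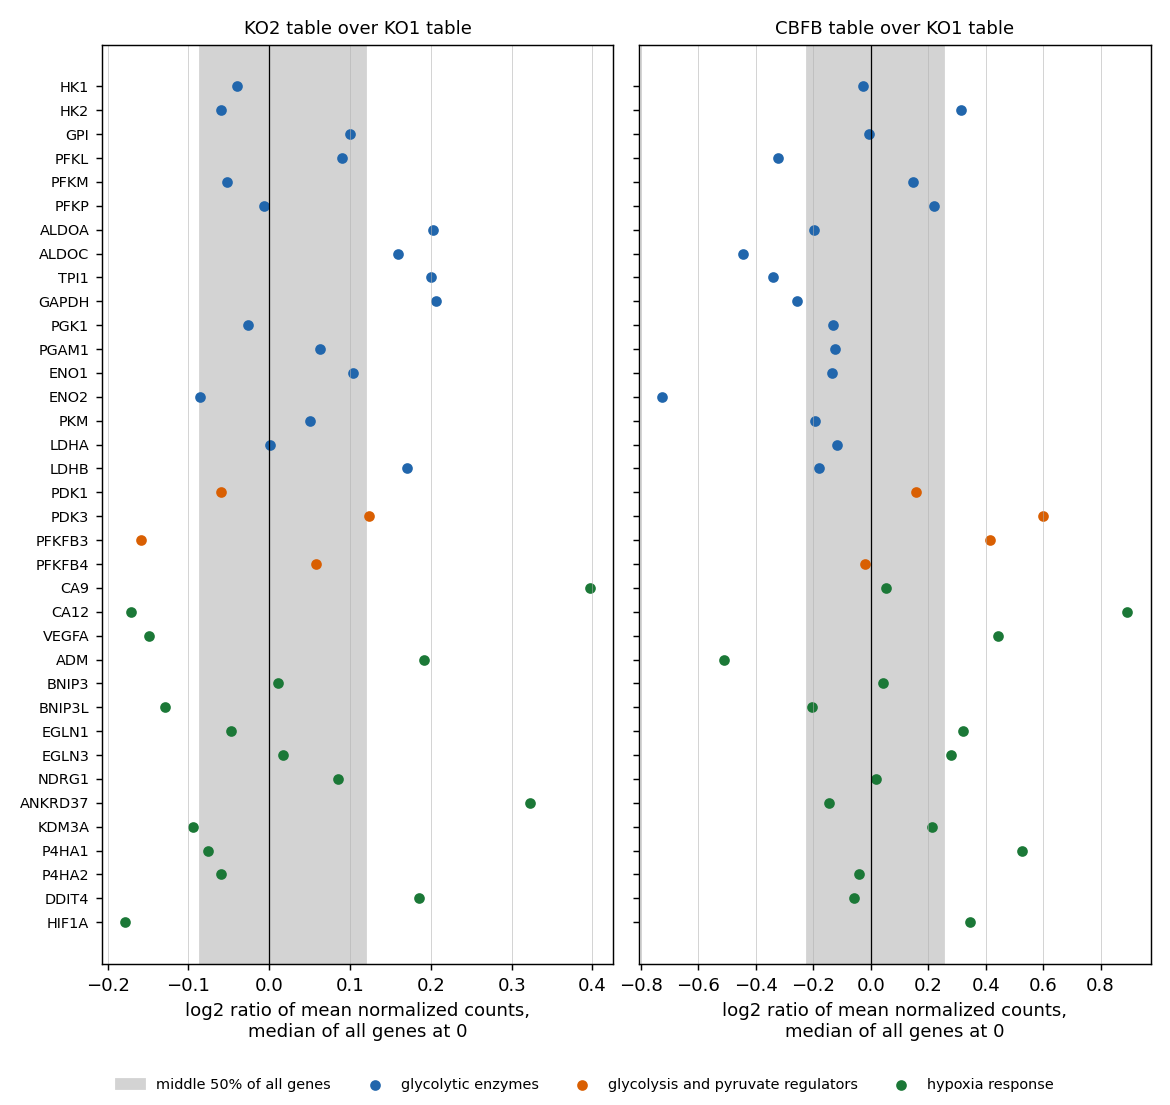
Log2 ratio of mean normalized counts for each member, KO2 table over KO1 table (left) and CBFB table over KO1 table (right), with the median of all genes at 0, the grey band holding the middle 50% of all genes, and different scales on the axes. There are no error bars because the tables hold no replicate values; CA12 stands at 0.89 on the right and ENO2 at −0.73.

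Transcript length moved with both ratios. Over all genes Spearman's rho between the log2 ratio and the length of the longest transcript was −0.52 for KO2 over KO1 (10094 genes) and 0.55 for CBFB over KO1 (10446 genes), and over the 36 members it was −0.68 and 0.55. These points share libraries and are a description only. The enzymes had shorter transcripts, with a median of 2769 bases against 3349 for the hypoxia response genes. When each gene was centred on genes of like length, in 20 bins of transcript length, a step added after this relation was seen, no member with means of at least 100 passed the limit of 25% for KO2 over KO1 in either direction, where 2.30% of all genes were higher and 0.644% lower. For CBFB over KO1, 3 were higher (CA12, PDK3 and P4HA1), where 12.7% of all genes were, and 1 was lower (PFKL, −0.54), where 13.8% were. CA12 then stood at 0.67, PDK3 at 0.49 and P4HA1 at 0.59, while VEGFA, whose longest transcript has 12167 bases, moved from 0.44 to −0.00 and ADM from −0.51 to −0.29. The medians of the enzymes and of the hypoxia response genes were then −0.07 and 0.09, with 6 of 17 and 9 of 15 above 0. The part that length plays in either ratio was not tested further.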

How the data were processed

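The labels name an mRNA library kit, while the methods mention depletion of rRNA before sequencing. The submitters' processing notes name Trimmomatic, STAR, DESeq2 and the hg19 build, with no versions; the read counter and annotation were not given in the sources used here. The authors deposited 3 tables, and their mean column is a non-negative signal: the mean of normalized counts over all libraries of a fit. The other 5 measured columns hold the authors' own comparison (fold change, its error, statistic and p-values) and were not used. No column holds a single sample's values, so no replicate error, test or depth per library was computed.

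Tables were joined by Entrez identifier in Python 3.11.15 with pandas 2.3.3. Lengths came from GENCODE 29 and promoters from RefSeq. Scripts were tested on simulated data. Named genes were all isoenzymes, the highest and lowest per kilobase, and the 5 highest and lowest members of each ratio, with the ends of each wider list; exceptions are marked in the text. Some genes of the wider lists are not reported here. The members and lists were chosen with earlier results of these data known. Alternatives were the median transcript length, no length correction, other centres, a minimum mean of 10 and ACGTG alone.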

Additional observations from a re-analysis of the deposited data

How the results depend on the processing

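With the median transcript length 7 of the first 8 members per kilobase in the KO1 table remained, and 13 of 15 steps kept their leading gene; without length correction 13 of 15 did too. Leaving out genes with means under 10 moved the median member's percentile in the KO1 table from 85.4 to 81.6. Counting all 36 members, the number higher by at least 25% for KO2 over KO1 went from 2 to 0 with means as deposited and to 0 with centring by length. For CBFB over KO1 the number higher went from 6 to 13, and the number lower from 4 to 1, with means as deposited. With centring by length 4 were higher and 2 lower, and with the summed means as centre 9 were higher and 3 lower. Means as deposited changed the sign of 10 members for KO2 over KO1 and of 14 for CBFB over KO1. Centring by length changed the sign of 8 members for KO2 over KO1 and of 9 for CBFB over KO1. Among the 9, VEGFA went from 0.44 to −0.00304 and PDK1 from 0.16 to −0.29. In the other direction DDIT4 went from −0.06 to 0.16 and ANKRD37 from −0.14 to 0.12. The share of member promoters with a core was 42.1% with ACGTG only. No paired analysis was possible because the columns hold means over pooled libraries. For the same reason leaving out a replicate, other size factors and a filter on counts were not run, and the depth of single libraries is unknown.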
